A study of Mus musculus with 21 samples.

Results

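The protein-coding genes of the cytosolic ribosome were followed across the livers of 6 groups of mice that differed in genotype and diet. Members were rows of the count table annotated as protein coding in GENCODE M21. Their whole symbol was *Rpl* or *Rps* and a number, with or without a letter (a, x, y or l) and a digit after it. *Rplp0*, *Rplp1*, *Rplp2* and *Rpsa* were members as well. Symbols with another ending, such as *Rpl36al* and *Rps27rt*, were outside the rule. The kinases named *Rps6k* and the processed pseudogenes were left out. Of 46078 rows, 83 were members, 51 of the large and 32 of the small subunit. A count was present for 82 members, and 79 passed the filter on low counts, 47 of the large and 32 of the small subunit. The 4 members that did not pass were *Rpl10l* with 0 counts over all libraries, *Rpl39l* with 8, *Rpl3l* with 55 and *Rpl23a* with 80. The filter kept these 4 out of the main test, whereas a fit without the filter tested 82 members. At counts this low a difference between groups may go undetected. *Rpl23a* shares exon bases with *Snord42b* and *Tlcd1*, and the reason for its low count was not tested.

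The ribosome is built from a small subunit, which binds the mRNA and decodes it, and a large subunit, which joins the amino acids. Each subunit holds ribosomal RNA made mainly by RNA polymerase I and a fixed set of proteins, most of them present once per particle. Many mRNAs of these proteins start with a C followed by a run of pyrimidines, the 5′ terminal oligopyrimidine (TOP) motif, through which their translation depends on mTORC1, the kinase complex that senses amino acids. In hepatocytes, which export much of the plasma protein, ribosomes are numerous and their amount follows feeding.

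The study removed single amino acids from the diet of mice lacking *Cse* (gene symbol *Cth*), the enzyme that releases cysteine from cystathionine, so that these animals could not make their own cysteine. All animals were male, at least 9 weeks old and calorie restricted. They received the control diet for 3 days and then the test diet for 2 days before the liver was taken. The mutation was present throughout the body, on a background of 129 and C57BL/6, and the comparison animals were labelled WT, whereas the text of the study describes its controls as heterozygous for *Cse*. The diets were a complete defined amino acid mixture (CTR), that mixture without cysteine (noCys) and that mixture without tryptophan (noTrp). The groups were WT CTR with 3 libraries, KO CTR with 4, WT noCys with 4, KO noCys with 3, WT noTrp with 2 and KO noTrp with 5, each library labelled as a separate biological replicate. RNA selected for poly(A) was sequenced from whole liver, and the library totals lay between 8889951 and 27230852 counts.

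A TOP motif stands at the first base of the transcript, and the starts of 8 members are shown, 4 with and 4 without it, because the values of these members are described further on. Each line gives 20 bases before the annotated start and the first 10 bases of the transcript, 5′ to 3′ on the gene's strand. Sequences and starts come from RefSeq on GRCm38.p6, and capitals mark a run that opens with C at the start base and goes on with at least 4 of C or T. *Rps6*, a small subunit protein and the classical phosphorylation target of the S6 kinases, starts within chr4:86857358-86857387 (minus strand). *Rps18* lies at chr17:33955656-33955685 (minus), *Rplp2* of the stalk at chr7:141447631-141447660 (plus) and *Rps27* at chr3:90213639-90213668 (minus).
Rps6: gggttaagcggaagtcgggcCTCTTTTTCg
Rps18: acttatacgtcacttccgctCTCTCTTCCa
Rplp2: cccactgcgtcagcgtcttcCTTTCgccgc
Rps27: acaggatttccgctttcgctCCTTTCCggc

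The other 4 starts hold no such run at the annotated base. They belong to *Rpl12* at chr2:32961692-32961721 (plus), *Rpl10a* at chr17:28328451-28328480 (plus), *Rpsa* at chr9:120127746-120127775 (plus) and *Rps27l* at chr9:66946066-66946095 (plus).
Rpl12: gcgtgggcggagcaggatccgtcttttcgg
Rpl10a: gcgtggtggcgcccccccagcggccgcaaa
Rpsa: tggctgtgggttatttaaggacgtcatttc
Rps27l: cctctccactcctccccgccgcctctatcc
*Rpl12* and *Rps27l* have such a run a few bases inside the annotated start, in *Rps27l* from the very next base, and *Rpl10a* has a run of C a few bases before it. A start annotated a few bases away would change the class of these 3 members. An entry existed for 63 of the 83 members, with 75 starts in all. The motif stood at 13 of these 75 starts (17.3%), against 823 of 32851 starts of the same length in the whole table (2.51%) and 0 of 75 starts of mitochondrial ribosomal proteins. For a C followed by at least 7 of C or T, beginning within 10 bases on either side of the start, the shares were 32% of member starts and 8.11% of all starts. Only the sense strand was read, and a match is a description of letters.

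The libraries were checked against their labels first. Levels are given as CPM, read counts expressed per equal library total and corrected by TMM factors for the composition of each library. *Cth* lay at 225 to 263 CPM in WT noCys and at 6.34 to 8.12 CPM in KO noCys. Mitochondrially encoded genes took 3.77 to 5.51% of counts in KO noCys and 4.54 to 7.67% in WT noCys, and the 50 most abundant genes took 27.4 to 31.6% and 34.2 to 37.3%. On CPM from library totals, without TMM factors, hepatocyte markers, 8 of 8 present in every group, summed to 56921 to 79719 CPM in KO noCys and 96517 to 105263 CPM in WT noCys, and 3 of 8 were called lower. Markers of bile duct cells were at 17.2 to 20.3 against 32.1 to 54.1 CPM, erythroid markers at 138 to 176 against 176 to 351 CPM, and macrophage markers at 96.2 to 125 against 94.5 to 163 CPM. Markers of lymphocytes were at 2.33 to 3.04 against 3.06 to 4.85 CPM, of stellate cells at 239 to 261 against 218 to 339 CPM and of endothelial cells at 143 to 154 against 137 to 201 CPM, and 5 of 7 pancreas markers were at 0 in every library. Called lower were 3 of 5 tested erythroid, 2 of 5 bile duct, 2 of 8 stellate and 2 of 7 endothelial markers, and no marker was called higher. Ribosomal RNA genes took 0.416 to 0.489% of counts in KO noCys and 0.724 to 1.25% in WT noCys. Hepatocyte, bile duct, erythroid and lymphocyte markers, the ribosomal RNA share and the share of the most abundant genes were thus lower in KO noCys without overlap, beside the higher member values of the same comparison, and their part in them was not tested. WT CTR replicate 3 held 8.38% of its counts in ribosomal RNA genes, against 0.412 to 1.25% in the other 20 libraries.

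Transcripts of the ribosomal proteins took up a larger part of the liver mRNA in KO mice on the diet without cysteine than in any other group mean. In KO noCys the 83 members held 2.56, 3.26 and 3.17% of all counts, or 3.0% ± 0.38 (SD, n = 3). In WT noCys they held 1.97, 2.18, 2.02 and 1.91%, or 2.02% ± 0.113 (SD, n = 4). Every KO noCys library was above every WT noCys library. On the complete diet the WT libraries stood at 2.03, 1.96 and 1.82% and the KO libraries at 2.48, 1.86, 2.08 and 2.16%. Without tryptophan the WT libraries stood at 2.36 and 2.74% and the KO libraries at 2.16, 2.61, 2.30, 2.13 and 2.09%. The lowest KO noCys library, replicate 1, therefore lay below 1 WT noTrp and 1 KO noTrp library, and the other two KO noCys libraries lay above all 18 libraries of the other groups. Without mitochondrial and ribosomal RNA genes in the total, the share was 2.71 to 3.39% in KO noCys, 2.02 to 2.28% in WT noCys and 2.09 to 2.20% in WT CTR. These are bulk livers, in which fewer cells of a type and less RNA per cell cannot be told apart.

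**Figure D1:**
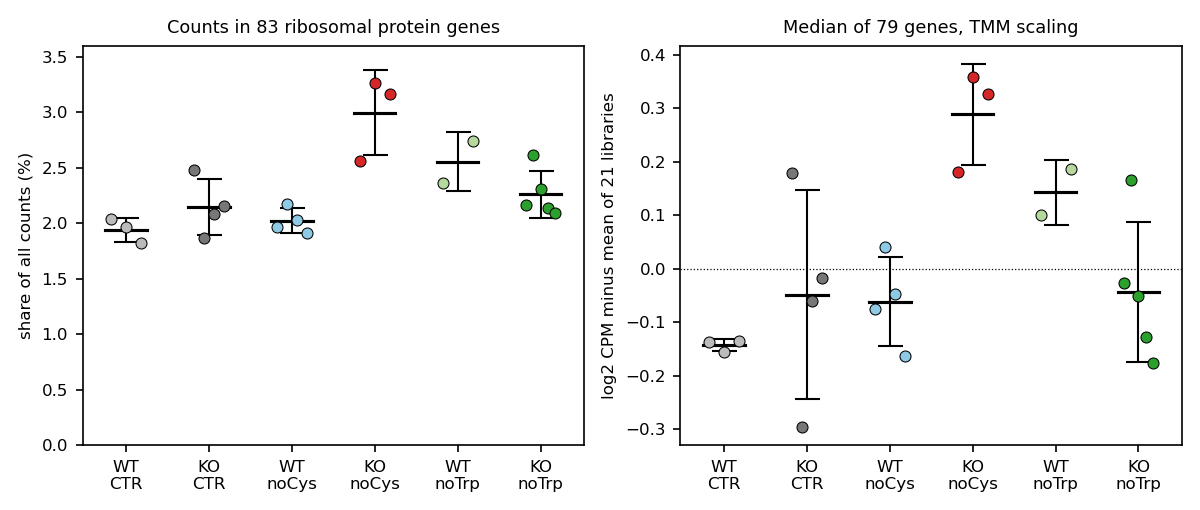
Left, percent of all counts in the 83 ribosomal protein genes by group, and right, the median over the 79 tested genes of log2 CPM minus the mean of the 21 libraries, after TMM scaling. Points are libraries and bars are mean ± SD of a group. The 3 KO noCys libraries lie at 2.56 to 3.26% on the left and at 0.18 to 0.36 on the right, above every WT noCys library in both panels.

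The same order was seen gene by gene after TMM scaling. For each library the deviation of every tested member from its mean over all 21 libraries was taken on the log2 scale, and the median of the 79 deviations was 0.18, 0.36 and 0.33 in KO noCys. The 4 WT noCys libraries gave −0.08, 0.04, −0.05 and −0.16, and the 3 libraries of WT CTR −0.14, −0.16 and −0.13. KO CTR was the most scattered group, at 0.18, −0.30, −0.06 and −0.02. Without tryptophan the WT values were 0.10 and 0.19 and the KO values −0.03, 0.17, −0.05, −0.13 and −0.18. KO CTR replicate 1 stood as high as KO noCys replicate 1, so KO CTR and KO noCys touched in this summary although their means were apart. Counts without KO noCys replicate 3, which stood highest, are given with the comparisons.

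The comparison of genotypes on the diet without cysteine addressed how these genes stood when neither diet nor *Cse* supplied cysteine. In edgeR's quasi-likelihood test, 42 of the 79 members rose in KO noCys against WT noCys and 1 fell at an adjusted p under 0.05, where the adjustment ran over all 14370 genes tested. Of all genes tested, 14.8% rose and 13.4% fell, against 53.2% of the members that rose. The median log2 fold change of the members was 0.36, a fold of 1.28, and that of all genes was −0.02. The estimate was above 0 for 67 members and ran from −0.52 to 1.20. In the large subunit 23 of 47 rose and none fell, and in the small subunit 19 of 32 rose and 1 fell, with a median of 0.36 in each. The libraries of both groups did not overlap for 47 members in the direction of KO noCys and for 2 in the other direction, where the shares of all genes were 19.4% and 18.1%. Without KO noCys replicate 3 the rises were 27, and the share of all genes that rose was 8.89%. Pseudogenes with a ribosomal protein parent, which can take reads from the parent, held 3.89 to 4.94% as many counts as the members, and 23 of 85 tested rose and 5 fell.

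**Figure D2:**
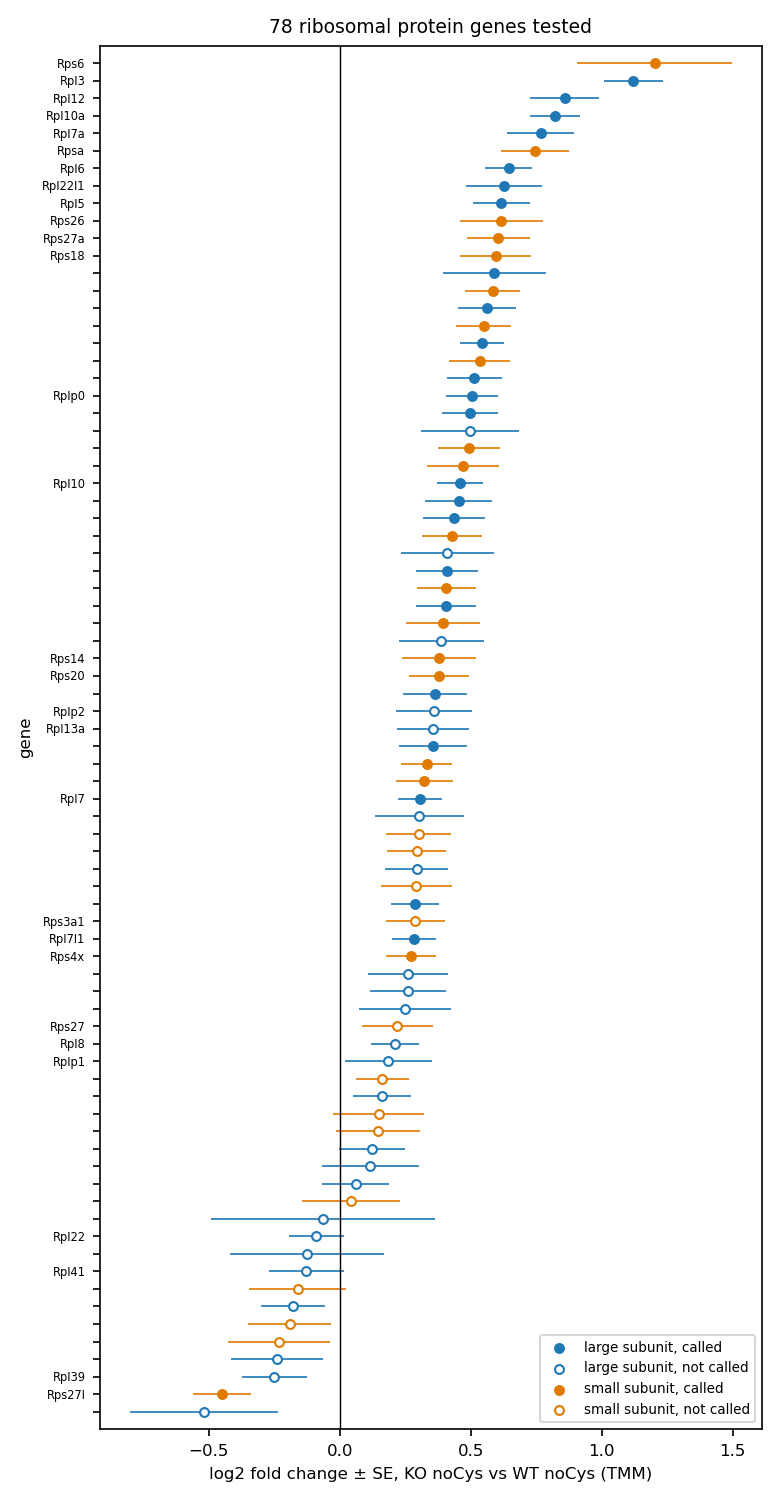
Log2 fold change ± SE of KO noCys against WT noCys for 78 of the 79 tested ribosomal protein genes, ordered by size, with filled points for those called at an adjusted p under 0.05, blue for the large and orange for the small subunit, with labels for the main genes named in the text. The points run from −0.52 (*Rpl17*, open, not labelled) to 1.20 (*Rps6*), and the only filled point below 0 is *Rps27l* at −0.45.

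Among the small subunit proteins, *Rps6* (ENSMUSG00000028495, chr4:86854660-86857412, GRCm38) had the largest estimate and a wide scatter. It was at 111, 97.6, 84.1 and 171 CPM in WT noCys and at 159, 321 and 320 CPM in KO noCys. One WT noCys library was above the lowest KO noCys library, so the groups overlapped. The log2 fold change was 1.20 ± 0.30 (SE) with an adjusted p of 0.00486 in edgeR's test, and it lay between 1.05 and 1.46 when single libraries were left out. On the diet without tryptophan *Rps6* was at 292 and 258 CPM in WT mice and at 166 to 259 CPM in KO mice, within the range of KO noCys. On the control diet it ranged from 91.2 to 231 CPM over the 7 libraries of both genotypes. Only KO noCys replicates 3 and 4 exceeded all WT noTrp and KO noTrp libraries, and the difference of KO noCys against KO noTrp was 0.22 with an adjusted p of 0.638.

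*Rpsa* (ENSMUSG00000032518, chr9:120127689-120132369) encodes a small subunit protein that is also known as the laminin receptor. It was at 311, 347, 361 and 300 CPM in WT noCys and at 521, 583 and 554 CPM in KO noCys. Levels on the other diets ran from 289 to 514 CPM, all below the lowest KO noCys library. The log2 fold change against WT noCys was 0.75 ± 0.13 (adjusted p = 0.000276). *Rps26*, which sits at the exit of the mRNA channel, was at 173, 202, 239 and 178 CPM in WT noCys and at 245, 334 and 332 CPM in KO noCys, a rise of 0.62 ± 0.16 (adjusted p = 0.00645) with a gap of a few CPM between the groups. *Rps27a*, translated as a fusion of ubiquitin with the ribosomal protein, was at 116, 106, 111 and 113 CPM against 168, 174 and 167 CPM, and rose by 0.61 ± 0.12 (adjusted p = 0.000967). In both groups the *Rps27a* values were close together, with SDs of 3.91 and 3.88 CPM, and the highest value in any other library was 145 CPM. *Rps27a* shares exon bases with *Clhc1*, and *Rpsa* with *Gm24044*.

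The largest rise in the large subunit was that of *Rpl3* (ENSMUSG00000060036, chr15:80077791-80091868), a core protein near the peptidyl transferase centre. Its level was 175, 209, 200 and 197 CPM in WT noCys and 379, 486 and 408 CPM in KO noCys. The remaining 14 libraries lay between 180 and 293 CPM, so the 3 KO noCys libraries stood clear of all others. The log2 fold change was 1.12 ± 0.11 (adjusted p = 1e-06). *Rpl12* (ENSMUSG00000038900, chr2:32961559-32965345), which forms the base of the stalk, was at 214, 216, 196 and 186 CPM in WT noCys and at 327, 423 and 354 CPM in KO noCys. It rose by 0.86 ± 0.13 (adjusted p = 0.000102). The highest *Rpl12* level elsewhere was 295 CPM, in WT noTrp replicate 1, and the gene shares exon bases with *Lrsam1* and *Snora65*.

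*Rpl10a* (ENSMUSG00000037805, chr17:28328471-28331033), whose protein lies at the opposite edge of the large subunit and is widely used to tag ribosomes, was at 200, 209, 183 and 190 CPM in WT noCys and at 323, 366 and 347 CPM in KO noCys. It rose by 0.82 ± 0.10 (adjusted p = 6.08e-06), and no other library exceeded 268 CPM. *Rpl7a* (ENSMUSG00000062647, chr2:26910764-26913318), a large subunit protein that binds ribosomal RNA, was less abundant, at 45.2, 42.0, 35.0 and 42.1 CPM against 72.9, 70.6 and 66.6 CPM. Its rise was 0.77 ± 0.13 (adjusted p = 0.000203). Levels of *Rpl7a* elsewhere ran from 33.9 to 58.8 CPM, again without overlap with KO noCys. Exon bases are shared with *CT025652.2* for *Rpl10a* and with *Gm22879* and *Gm24134* for *Rpl7a*.

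*Rpl6*, a large subunit protein, was at 250, 243, 233 and 235 CPM in WT noCys and at 383, 385 and 356 CPM in KO noCys, a rise of 0.64 ± 0.09 (adjusted p = 3.8e-05). *Rpl5*, which travels with the 5S RNA and, when free, binds the p53 regulator Mdm2, was at 208, 206, 189 and 178 CPM against 296, 322 and 280 CPM and rose by 0.62 ± 0.11 (adjusted p = 0.000351). For both genes every KO noCys library was above each of the other 18 libraries. This held for 24 of the 79 members, against 5.38% of all genes tested, and the opposite, below each of the other 18 libraries, held for *Rps27l* alone, against 3.88% of all genes.

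**Figure D3:**
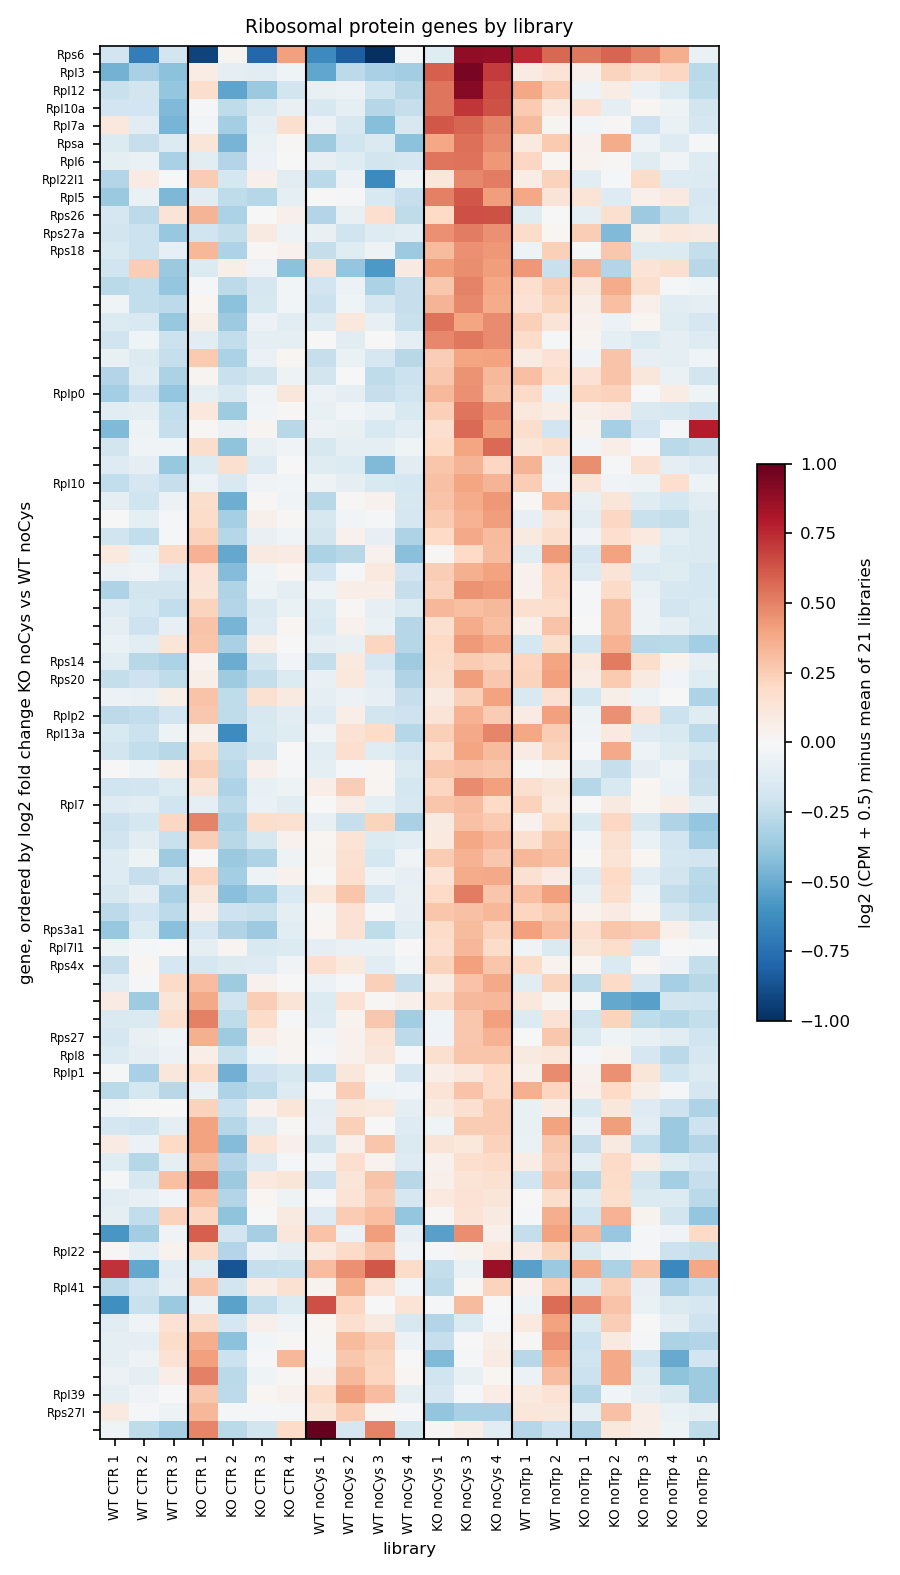
Heat map of 78 of the 79 tested genes (rows, labelled for the main genes named in the text, ordered by the log2 fold change of KO noCys against WT noCys) in the 21 libraries (columns, by group), coloured by log2(CPM + 0.5) minus the mean of the 21 libraries, with colours ending at ±1. The KO noCys columns are high over most rows and low at the bottom, where *Rps27l* is lowest in the 3 KO noCys libraries.

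The stalk of the large subunit, which recruits the translation factors, is made of *Rplp0* and the dimers of *Rplp1* and *Rplp2*. *Rplp0* was at 624, 606, 552 and 565 CPM in WT noCys and at 812, 889 and 798 CPM in KO noCys, a rise of 0.51 ± 0.10 (adjusted p = 0.000888). All KO noCys values were above the highest value elsewhere, 761 CPM. *Rplp1*, per length of its coding transcript the most abundant member at 1485 CPM per kb, was at 618, 793, 743 and 652 CPM in WT noCys and at 764, 788 and 841 CPM in KO noCys. These groups overlapped, and the estimate was 0.19 ± 0.17 (adjusted p = 0.421). *Rplp2* was at 228, 261, 220 and 216 CPM against 273, 318 and 298 CPM. Its groups did not overlap, but 0.36 ± 0.14 missed the threshold with an adjusted p of 0.0699. The 3 stalk genes were not tested against each other.

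*Rps27* and *Rps27l* encode near-identical small subunit proteins, and *Rps27l* is known as a gene induced by p53. *Rps27l* (ENSMUSG00000036781, chr9:66946086-66949516) was at 258, 285, 241 and 234 CPM in WT noCys and at 181, 189 and 189 CPM in KO noCys. No other library of any group was below 221 CPM. It was the only member called lower, with a log2 fold change of −0.45 ± 0.11 (adjusted p = 0.00503). *Rps27* was at 301, 317, 338 and 256 CPM against 299, 370 and 389 CPM, with overlap and an estimate of 0.22 ± 0.13 (adjusted p = 0.23). The ratio of *Rps27l* to *Rps27* counts within a library, which does not depend on the scaling, was 0.604, 0.511 and 0.485 in KO noCys and 0.693 to 0.977 in the other 18 libraries. With library totals as the only scaling the *Rps27l* estimate was −0.23 with an adjusted p of 0.167, so the call, but not the order of the ratio, depended on the scaling.

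Other pairs of paralogs did not share one pattern. *Rpl22l1* was at 24.9, 28.9, 19.2 and 29.1 CPM in WT noCys and at 32.7, 42.3 and 43.1 CPM in KO noCys, a rise of 0.63 ± 0.14 (adjusted p = 0.00301). Its more abundant paralog *Rpl22* was at 247, 262, 277 and 224 CPM against 228, 235 and 247 CPM, with an estimate of −0.09 ± 0.10 (adjusted p = 0.545) that turned to 0.13 with library totals. The ratio of *Rpl22l1* to *Rpl22* counts was 0.143 to 0.180 in KO noCys, 0.0692 to 0.130 in WT noCys and up to 0.151 elsewhere. *Rpl7* and *Rpl7l1* rose together, by 0.31 ± 0.08 (adjusted p = 0.0102) and 0.28 ± 0.08 (adjusted p = 0.0146). Each of these calls held in 6 of 7 fits that left out 1 library. *Rpl7* was at 318, 336, 299 and 286 against 388, 395 and 366 CPM, and *Rpl7l1* at 63.4, 64.3, 64.3 and 67.3 against 75.6, 84.7 and 76.4 CPM. Neither gene overlapped between the groups, and their ratio in KO noCys, 0.195 to 0.214, lay within the range of all libraries, 0.175 to 0.260.

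*Rpl10*, an X-linked protein needed at the last step of large subunit assembly, was at 385, 374, 359 and 354 CPM in WT noCys and at 489, 524 and 505 CPM in KO noCys, and rose by 0.46 ± 0.09 (adjusted p = 0.000657), while its paralog *Rpl10l* had no count. *Rps4x*, also X-linked, was at 337, 320, 277 and 295 against 351, 398 and 363 CPM and rose by 0.27 ± 0.10 (adjusted p = 0.0393), a call that remained in 3 of 7 fits that left out 1 library. Its relative *Rps4l* was not analysed here. *Rpl39*, a short protein that lines the exit tunnel, was at 163, 193, 178 and 134 against 128, 142 and 152 CPM, with overlap and an estimate of −0.25 ± 0.12 (adjusted p = 0.143). The muscle paralog *Rpl3l* never exceeded 0.465 CPM.

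A few members were far below the rest. *Rpl24* and *Rpl17*, at 1.12 and 4.12 CPM per kb over all libraries, were the lowest of the tested members, while *Rps15*, *Rpl41* and *Rps18* stood at 1102, 1029 and 929 CPM per kb. *Rpl24* shares exon bases with *Gm28037*, and 38 of the 83 members share exon bases with some other gene, whose part in their counts was not tested. *Rpl17* was at 12.8, 4.62, 7.60 and 4.59 CPM in WT noCys and at 5.30, 5.53 and 4.82 CPM in KO noCys, with an estimate of −0.52 ± 0.28 (adjusted p = 0.178) and a single high library.

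The scaling of the libraries bears on the direction of some of these genes. With TMM, 42 members rose in KO noCys against WT noCys and 1 fell. With RLE factors the counts were 41 and 1, with upper-quartile factors 37 and 1, and with TMM factors computed without the members 42 and 1. With library totals alone 60 rose and none fell, and the median was 0.58, but of all genes 27.4% rose and their median also moved, to 0.20. Relative to all genes the members thus stood 0.38 higher on the log2 scale under totals and 0.37 higher under TMM. Taking mitochondrial, ribosomal RNA and member genes out of the totals gave 59 rises, no fall and a median of 0.58. There 27.9% of all genes rose and their median was 0.20. The call differed between TMM and library totals for 19 members, and the sign for 7. The 3 most abundant of them were *Rpl13a*, *Rpl41* and *Rpl8*. *Rpl13a* was at 0.36 (adjusted p = 0.0611) with TMM and rose by 0.58 with totals, *Rpl8* was at 0.21 (adjusted p = 0.0934) and rose by 0.43, and *Rpl41* was at −0.13 (adjusted p = 0.532) and 0.10.

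**Figure D4:**
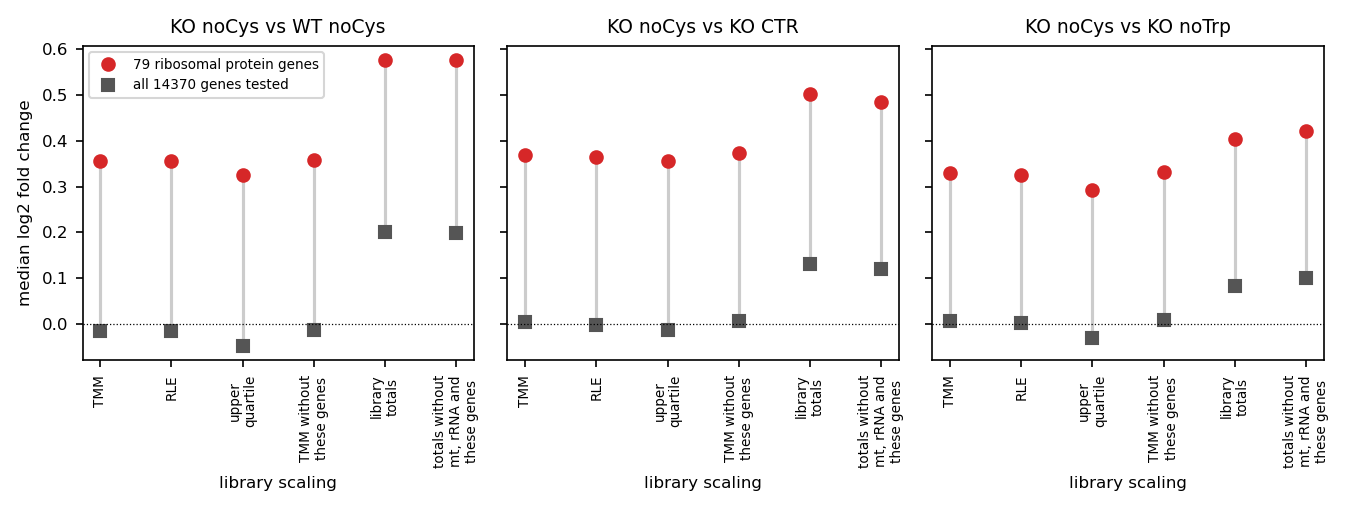
Median log2 fold change of the 79 ribosomal protein genes and of all 14370 genes tested under 6 ways of scaling the libraries, for KO noCys against WT noCys, KO CTR and KO noTrp. The members lie above all genes under every scaling, with library totals moving both upward.

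Within the KO genotype the diet without cysteine was set against the complete diet and against the diet without tryptophan, so that cysteine could be told from another missing amino acid. These comparisons share the 3 KO noCys libraries with each other and with the comparison above. Against KO CTR, 39 members rose and 1 fell (10.6% and 9.59% of all genes), with a median of 0.37. Against KO noTrp, 36 rose and 1 fell (7.17% and 6.75% of all genes), with a median of 0.33. The single fall was *Rps27l* both times, at −0.43 ± 0.11 (adjusted p = 0.00988) and −0.38 ± 0.11 (adjusted p = 0.0219). Groups did not overlap for 41 members higher and 1 lower against KO CTR (15.4% and 13.2% of all genes), and for 39 and 1 against KO noTrp (10% and 9.55%). Without KO noCys replicate 3 the rises were 23 and 13, where 5.01% and 2.12% of all genes rose, and without replicate 4 those against KO noTrp were 17, where 4.38% did. With the replicate number as a block the rises against KO noTrp were 20, where 4.52% of all genes rose. With only the groups compared in the fit they were 23, where 5.11% did. The *Rps27l* call against KO noTrp held in 4 of 8 fits that left out 1 library. Its adjusted p there was 0.0503 with the replicate number as a block and 0.0526 with only the groups compared in the fit. Marker sums from library totals stood apart between KO noCys and KO noTrp, at 96.2 to 125 against 140 to 224 CPM for macrophages, 143 to 154 against 171 to 225 CPM for endothelial cells and 17.2 to 20.3 against 27.1 to 51.2 CPM for bile duct cells, and their part was not tested. Against KO CTR the sums of these 3 lists and of hepatocyte markers overlapped, while the ribosomal RNA share did not, at 0.416 to 0.489% against 0.535 to 0.998% in KO CTR, and its part was not tested.

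Against KO CTR the 3 largest rises were *Rpl12* at 0.91 ± 0.13 (adjusted p = 9.34e-05), *Rpl3* at 0.80 ± 0.11 (adjusted p = 6.72e-05) and *Rpl10a* at 0.75 ± 0.10 (adjusted p = 2.59e-05). KO CTR libraries were at 254, 156, 174 and 198 CPM for *Rpl12*, at 265, 236, 232 and 244 CPM for *Rpl3* and at 220, 187, 202 and 212 CPM for *Rpl10a*, each below all KO noCys libraries given above. Against KO noTrp the largest were *Rpl12* at 0.79 ± 0.13 (adjusted p = 0.000418), *Rpl3* at 0.67 ± 0.11 (adjusted p = 0.000404) and *Rpl7a* at 0.66 ± 0.12 (adjusted p = 0.00136). KO noTrp libraries were at 188 to 236 CPM for *Rpl12*, at 208 to 293 CPM for *Rpl3* and at 40.8 to 47.4 CPM for *Rpl7a*, without overlap. With library totals as the only scaling 50 members rose against KO CTR and 44 against KO noTrp and none fell, *Rps27l* included, while 16.6% and 9.45% of all genes rose and the medians of all genes moved to 0.13 and 0.08. Between TMM and library totals the call against KO CTR differed for 12 members and the sign for 5. The most abundant of these members were *Rpl41*, *Rps18* and *Rps14*, and the estimates of *Rps18* and *Rps14* were 0.37 and 0.38 with TMM (adjusted p = 0.060 and 0.063) and 0.50 and 0.51 with totals (0.015 and 0.019).

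The effect of removing cysteine was then compared between the genotypes, as the difference between KO noCys against KO CTR and WT noCys against WT CTR. This difference was above 0 and past the threshold for 10 members and below 0 for 1, against 3.56% and 3.88% of all genes, with a median of 0.30. The largest were *Rpl12* at 0.80 ± 0.19 (adjusted p = 0.0141), *Rpl3* at 0.75 ± 0.16 (adjusted p = 0.00725) and *Rpl7a* at 0.70 ± 0.18 (adjusted p = 0.0235). In 14 fits that left out 1 library these calls held in 13, 14 and 11, in the same order. *Rps27l* was the single gene in the other direction, at −0.52 ± 0.16 (adjusted p = 0.0465). Of the 10, 8 belonged to the large subunit. The members above 0 were 6 with the replicate number as a block, 5 without the filter and 19 with library totals. They were 26 when mitochondrial, ribosomal RNA and member genes were also left out of the totals. In the same order, 2.69, 1.29, 5.93 and 8.38% of all genes were above 0 and past the threshold. The count was 4 to 12 in both directions together when single libraries were left out, and *Rps27l* stayed past the threshold in 2 of those 14 fits. Its difference was −0.36 (adjusted p = 0.217) with library totals, and its adjusted p was 0.0695 with the replicate number as a block and 0.0825 without the filter.

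Removing cysteine from the diet of WT mice moved no member past the threshold. In edgeR's test of WT noCys against WT CTR 0 of 79 were called, against 0.661% of all genes, 6 had an unadjusted p under 0.05, and the median was 0.10. DESeq2 and limma-voom each called *Rps23* higher, a name given after its values were seen. It was at 125, 92.6, 80.0 and 87.6 CPM in WT noCys and at 52.1, 68.4 and 61.7 CPM in WT CTR, without overlap, and at 79.2, 99.5 and 79.4 CPM in KO noCys. Groups did not overlap for 6 members, all higher in WT noCys, where the share of all genes was 9.15%.

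On the complete diet no member passed the test between the genotypes. For KO CTR against WT CTR 0 members were called by edgeR, DESeq2 or limma-voom, against 0.32% of all genes in edgeR's test, and 2 had an unadjusted p under 0.05. The median was 0.09, groups did not overlap for 3 members, all higher in KO CTR (5.39% of all genes), and the smallest adjusted p belonged to *Rpl3*, at 0.37 ± 0.11 (adjusted p = 0.224). On the diet without tryptophan, KO noTrp against WT noTrp, 0 members were called by any of the 3 tools, against 0.195% of all genes, and 17 had an unadjusted p under 0.05. Here 5 of 79 estimates were above 0 and the median was −0.19. Every KO noTrp library was below both WT noTrp libraries for 20 members, where the share of all genes was 4.97%, and no adjusted p was under 0.314. Erythroid markers summed to 112 to 214 CPM in KO noTrp and 222 to 378 CPM in WT noTrp, from library totals and without overlap, and their part was not tested. With 2 WT noTrp libraries the spread of that group rests on the fit over all groups.

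Tryptophan removal was set against the complete diet within each genotype. In WT noTrp against WT CTR 11 members rose and none fell, against 1.7% and 1.5% of all genes, with a median of 0.29 and 76 of 79 estimates above 0. *Rps3a1*, a small subunit protein at the mRNA exit, was at 277, 328 and 269 CPM in WT CTR and at 478 and 446 CPM in WT noTrp, and rose by 0.67 ± 0.13 (adjusted p = 0.0127). *Rpl12* rose by 0.58 ± 0.16 (adjusted p = 0.0483), from 193, 199 and 172 CPM to 295 and 268 CPM. *Rps20*, which binds at the head of the small subunit, was at 226, 232 and 224 against 312 and 355 CPM and rose by 0.55 ± 0.14 (adjusted p = 0.0324). None of these 3 groups of values overlapped, and neither did those of 52 members in all (15.3% of all genes). The count dropped to 0 when either WT CTR replicate 3 or WT noTrp replicate 1 was left out, to 1 without WT CTR replicate 1, to 4 without replicate 2 of that group and to 6 without WT noTrp replicate 2. The share of all genes that rose was 0.515, 0.383, 0.605, 0.995 and 2.92% in these fits, in the same order. In these 5 fits the calls of *Rpl12* and *Rps20* held in 0 and that of *Rps3a1* in 3. With all libraries kept, limma-voom called 0 members here, the fit with only the groups compared 0 and the replicate block 2, where 0.125, 0.0139 and 0.703% of all genes rose. Macrophage markers summed to 179 to 196 CPM in WT noTrp and 71.9 to 130 CPM in WT CTR, and endothelial markers to 197 to 245 against 134 to 188 CPM, all from library totals. Stellate cell and fibroblast markers were lower, at 206 to 279 CPM in WT noTrp and 285 to 367 CPM in WT CTR. Mitochondrially encoded genes took 3.70 to 3.89% of counts in WT noTrp and 6.51 to 7.51% in WT CTR, and the 50 most abundant genes 30.3 to 33.2% and 34.4 to 39.3%. Ribosomal RNA genes took 0.451 to 0.686% and 0.854 to 8.38%. None of these ranges overlapped, and their part was not tested. In KO noTrp against KO CTR 0 members were called by edgeR, against 1.87% of all genes, 8 had an unadjusted p under 0.05, the median was 0.02, and 1 member was higher without overlap (3.17% of all genes). DESeq2 called *Rps3a1* higher (0.37) and *Rpl31* lower (−0.43) there, and limma-voom called *Rpl31* lower. Whether the effect of removing tryptophan differed between the genotypes was not tested.

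The members did not rise evenly, and their position in the range followed the length of the coding sequence. In KO noCys against WT noCys the 10 members with under 300 coding bases had a median of −0.16, and none rose and 1 fell. Those with 300 to 449 bases (n = 28) had a median of 0.30 with 12 rises, and those with 450 to 599 bases (n = 18) 0.44 with 12 rises. With 600 to 899 bases (n = 20) the median was 0.46 with 15 rises, and with 900 or more (n = 3) 0.54 with 3. With library totals the median of the 10 short members was 0.06, with 2 rises and no fall, and the longer bins were at 0.52, 0.66, 0.68 and 0.76, so the sign of the short members depended on the scaling and the order of the bins did not. With TMM, other coding genes in the same bins had medians of −0.22, −0.06, −0.12, −0.03 and 0.00. Spearman's rho between coding length and log2 fold change was 0.55 over the 79 members and 0.07 over 12259 other coding genes. Without the members under 300 bases it was 0.38 over 69, and without those of 900 or more 0.52 over 76. These points are genes that share the same 7 libraries, so rho is a description. The share of G and C in the transcript gave a rho of 0.12.

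**Figure D5:**
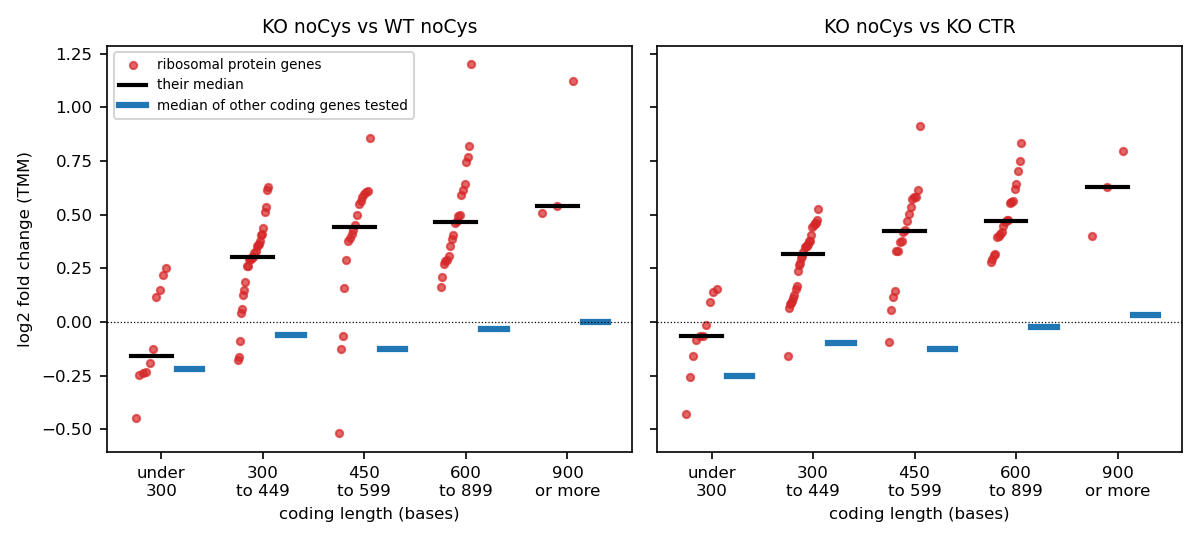
Log2 fold change of the ribosomal protein genes (red) by length of the coding sequence in bases, for KO noCys against WT noCys and against KO CTR, with the median of the members (black) and of other tested coding genes (blue) in each bin. The medians of the members climb from −0.16 to 0.54 on the left and from −0.06 to 0.63 on the right with TMM scaling, and with library totals the lowest bin is at 0.06 and 0.07.

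The 10 short members were *Rpl37*, *Rpl37a*, *Rpl38*, *Rpl39*, *Rpl41*, *Rps21*, *Rps27*, *Rps27l*, *Rps28* and *Rps29*. Many of them are small basic or zinc-binding proteins that lie on ribosomal RNA. Against KO CTR rho was 0.65, and 0.51 without the short members, and against KO noTrp it was 0.37, and 0.21 without the short members. It was also 0.54 in KO noTrp against KO CTR, where no member was called, and 0.37 there without the short members. It was 0.30 in KO noTrp against WT noTrp and 0.27 in WT noTrp against WT CTR, and −0.09 in KO CTR against WT CTR and −0.05 in WT noCys against WT CTR. In single libraries, the median deviation of the 23 members with 600 or more bases minus that of the 10 short ones was 0.46, 0.45 and 0.31 in KO noCys. The other 18 libraries lay between −0.45 and 0.28, with KO CTR replicate 1 at the lowest value and KO noTrp replicate 4 at the highest. The lower end of this trend holds *Rps27l*, and the upper end *Rpl3*.

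The change was then set beside the TOP motif at the annotated start. With the motif, 6 of 13 tested members rose in KO noCys against WT noCys, with a median of 0.36, and without it 24 of 47 rose and 1 fell, with a median of 0.30, where 14.8% of all genes rose. Against KO CTR the counts were 3 of 13, with a median of 0.32, and 25 of 47 with 1 fall and a median of 0.38, where 10.6% of all genes rose. *Rps6* and *Rps18* carry the motif and rose, by 1.20 and 0.59, while *Rplp2* and *Rps27*, whose starts are printed beside them, were not called. *Rpl12*, *Rpl10a* and *Rpsa* rose by 0.86, 0.82 and 0.75 with starts that lack it at the annotated base, as does *Rps27l*, and for all of these but *Rpsa* the class turns on a few bases of annotation. No difference between the classes was tested, and these data hold no measure of translation.

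Partners of the ribosome were counted over lists of their genes in the same test of KO noCys against WT noCys. The counts of these lists stand beside the 14.8% of all genes that rose and the 13.4% that fell. Of 5 ribosomal components outside the symbol rule, 2 rose. *Rack1*, a scaffold on the small subunit, was at 468, 470, 445 and 422 CPM in WT noCys and at 568, 681 and 611 CPM in KO noCys, a rise of 0.46 ± 0.10 (adjusted p = 0.0017). *Rps27rt*, a retrogene copy of *Rps27*, was at 6.48, 8.22, 7.03 and 4.13 against 15.2, 13.8 and 12.5 CPM and rose by 1.12 ± 0.24 (adjusted p = 0.00185), and reads of its parent may be counted in it. *Fau*, a fusion of a ubiquitin-like protein with a small subunit protein, had an estimate of 0.25 ± 0.12 (adjusted p = 0.111).

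Factors that build ribosomes and load them rose more often than they fell. Of 44 assembly factors 30 rose and none fell, with a median of 0.63. *Rrp12*, an export factor of both subunits, was at 6.94, 5.86, 6.17 and 8.72 CPM in WT noCys and at 11.1, 23.6 and 16.3 CPM in KO noCys, a rise of 1.29 ± 0.24 (adjusted p = 0.0006). *Nle1*, *Ltv1* and *Ppan* rose by 1.12, 1.05 and 0.91. Of 34 genes listed as initiation and elongation factors 22 rose and none fell, with a median of 0.36, the same as that of the members. The list also holds *Pabpc1* and *Tpt1*, which are not named as initiation or elongation factors. *Eif3c*, a subunit of the initiation factor that binds the small subunit, was at 103, 96.6, 123 and 104 against 214, 279 and 240 CPM and rose by 1.20 ± 0.11 (adjusted p = 2.45e-07). *Eif6*, which keeps the subunits apart, *Eif2s1*, the phosphorylated subunit of eIF2, and *Eif3g* rose by 0.88, 0.87 and 0.81. Of 20 genes of RNA polymerase I and its factors 7 rose and 1 fell, with a median of 0.16, and the largest rises were *Polr1e* (1.11), *Taf1b* (1.06), *Cd3eap* (0.99) and *Polr1a* (0.76).

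Of 28 genes of mTORC1 and the amino acid control of translation 6 rose and 1 fell, with a median of 0.10, where 14.8% of all genes rose and 13.4% fell. *Trib3*, a pseudokinase induced by amino acid shortage, was at 17.3, 23.7, 14.0 and 22.9 CPM in WT noCys and at 51.9, 225 and 101 CPM in KO noCys, a rise of 2.70 ± 0.40 (adjusted p = 7.08e-05). *Eif4ebp1*, which blocks cap-dependent initiation when mTORC1 is off, and *Sesn2*, an inhibitor of mTORC1, rose by 0.92 and 0.93. *Eef2k*, the kinase that stops elongation, fell by 0.97 on the log2 scale, from 9.22, 13.0, 12 and 12.1 CPM to 4.51, 6.39 and 6.56 CPM. Of the genes named from this list, *Eif4ebp1* and *Sesn2*, which restrain initiation or mTORC1, thus rose, while *Eef2k*, which restrains elongation, fell.

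Mitochondrial ribosomal proteins, the counterpart of the members in the mitochondrion, were called in both directions. Of 77 tested, 20 rose and 9 fell in KO noCys against WT noCys, with a median of 0.11, where 14.8% of all genes rose and 13.4% fell. Against KO CTR 6 of 77 rose and 10 fell, with a median of −0.03, where 10.6% and 9.59% of all genes did. Against KO CTR the assembly factors gave 19 rises of 44 with a median of 0.40, the initiation and elongation factors 21 rises and 1 fall of 34 with 0.36, and the pseudogenes 16 rises of 85 with 0.26. Against KO noTrp the rises were 22 of 44 assembly factors, 13 of 34 initiation and elongation factors and 5 of 85 pseudogenes, where 7.17% of all genes rose. In KO CTR against WT CTR and in KO noTrp against WT noTrp no gene of these lists was called, where 0.32% and 0.195% of all genes were.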

How the data were processed

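Poly(A) RNA from 21 livers was sequenced as pairs and, in the submitters' processing notes and the study's methods, aligned to GRCm38 with HISAT2 2.1.0 and counted per gene with HTSeq 0.11.0. The strand setting and the annotation release are not given in the sources used here. The deposited values are whole-number counts, 1 column per library. Of 46078 rows 45229 matched GENCODE M21, and the 849 others held 0.0536% of counts. One further column, of 1 sample not in the labels, was not used.

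Members and lists were chosen with earlier results of these data known. Genes with at least 10 counts in enough libraries and 15 in all (edgeR's filterByExpr) numbered 14370. edgeR 4.0.16 (R 4.3.3) fitted 1 mean per group over all 21 libraries, with TMM factors, glmQLFit and glmQLFTest, and Benjamini-Hochberg adjustment over all genes at 0.05. SE is the absolute log2 fold change divided by the square root of F. CPM values use TMM-scaled totals, and SDs are over libraries of a group. limma 3.58.1 (voom) and DESeq2 1.42.0 were alternatives. Scripts were tested on simulated data. Counting error alone limits members with few counts.

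Named genes were the 10 largest rises and falls among called members in KO noCys against WT noCys, the 3 largest in each other comparison, the stalk, *Rpsa*, *Rps6*, *Rps27a*, *Rack1*, *Fau* and the paralog pairs, the 3 most abundant members whose call or sign changed with library totals, up to 4 called genes per pathway list, and *Cth*. Some genes are not reported here, and any other gene was named after its values were seen.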

Additional observations from a re-analysis of the deposited data

Results flagged for a closer look

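Over the 3 groups of at least 4 libraries, 90 sets of values of named members and library summaries were searched for a library far from the rest of its group. One was found, where chance gives about 1 in 20: *Rps27l* in KO CTR replicate 1, at 298 CPM beside 235 CPM in each of the other 3 KO CTR libraries.

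For the members given here the change on the diet without cysteine was not the same in both genotypes, by edgeR's test of the difference with adjustment over all genes. The difference in log2 fold change (KO minus WT) was 0.80 for *Rpl12*, 0.75 for *Rpl3*, 0.70 for *Rpl7a*, 0.67 for *Rpl10a*, 0.66 for *Rpsa* and 0.60 for *Rpl6*. It was 0.53 for *Rpl4*, 0.52 for *Rpl5*, 0.52 for *Rpl18* and −0.52 for *Rps27l*. The adjusted p ran from 0.00574 for *Rpl10a* to 0.0491 for *Rpl18*. The *Rps27l* difference stayed past the threshold in 2 of 14 fits that left out 1 library, and it was −0.36 (adjusted p = 0.217) with library totals, with an adjusted p of 0.0695 under the replicate block and 0.0825 without the filter. Under the block 6 members were past the threshold, all higher.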

How the results depend on the processing

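The counts of called members and the median of the 79 members were recomputed in 9 comparisons under 10 alternatives, and 158 of 180 values stayed within 1.5 times the count or within the spread of the libraries of the median. The pooled SD of the library values within groups was 0.123 on the log2 scale. A median near 0 can change sign within it, as in KO noTrp against KO CTR, from 0.02 to −0.01 with limma-voom. A count of 0 can stay 0 where few genes are called. With library totals alone the median in KO noCys was 0.58 against WT noCys and 0.50 against KO CTR, and the difference between the genotypes gave 19 calls and a median of 0.45, where 5.93% of all genes rose (3.56% with TMM) and their median was 0.16. Leaving mitochondrial, ribosomal RNA and member genes out of the totals gave 0.58 against WT noCys, and 26 calls and a median of 0.49 for the difference, where 8.38% of all genes rose and their median was 0.20. *Rpl22* turned from −0.09 to 0.13 under both totals, and *Rpl41* from −0.13 to 0.10. DESeq2 called 2 members in KO noTrp against KO CTR, 1 in WT noCys against WT CTR and 18 in WT noTrp against WT CTR. Of all genes 2.22% rose and 2.46% fell in the first of these, 1.47 and 1.08% in the second and 3.72 and 3.59% in the third, against 0.779 and 1.09%, 0.39 and 0.271%, and 1.7 and 1.5% by edgeR. limma-voom called 1, 1 and 0 in these, and 21 in the difference between genotypes, where 1.96 and 2.28%, 2.17 and 1.54%, 0.125 and 0.0974%, and 7.31 and 7.85% of all genes rose and fell. Without the filter there was 1 call in WT noCys against WT CTR and 5 in the difference, where 0.46 and 1.29% of all genes rose. With only the groups compared in the fit, KO noCys against KO noTrp gave 23 calls and WT noTrp against WT CTR 0, where 5.11 and 0.0139% of all genes rose, with fewer libraries behind the spread. The share of WT CTR replicate 3 moved from 1.82 to 2.09% without mitochondrial and ribosomal RNA genes. Where no reason is given, the cause was not tested.

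Leaving out single libraries gave 28 to 44 calls and medians of 0.31 to 0.40 for KO noCys against WT noCys, 24 to 48 and 0.30 to 0.43 against KO CTR, and 13 to 42 and 0.30 to 0.38 against KO noTrp. The counts were 0 in every such fit for KO CTR against WT CTR (medians 0.02 to 0.17) and WT noCys against WT CTR (0.05 to 0.11). Medians were −0.25 to −0.12 for KO noTrp against WT noTrp and 0.25 to 0.33 for WT noTrp against WT CTR. With both WT noTrp libraries kept, the counts were 0 for the first of these and 0 to 4 for the second. The counts were 0 to 1 for KO noTrp against KO CTR (−0.07 to 0.09) and 4 to 12 for the difference between genotypes (0.21 to 0.36). In the comparisons with KO noCys 8.89 to 14.2, 5.01 to 10.7 and 2.12 to 7.65% of all genes rose in these fits, in the order above. It was 0.209 to 1.37% for KO noTrp against KO CTR (0.515 to 1.69% fell) and 1.37 to 4.64% for the difference. For KO CTR against WT CTR it was 0.0139 to 0.0626% (0.0418 to 0.32% fell). For WT noCys against WT CTR it was 0 to 0.111% (0.00696 to 0.244% fell). With both WT noTrp libraries kept, it was 0.0765 to 0.118% for KO noTrp against WT noTrp (0.111 to 0.23% fell). In the same way it was 0.515 to 0.995% for WT noTrp against WT CTR. The lone WT noTrp library left in some of these fits is assumed to vary like the other groups.

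With the replicate number as a block, 1 member was called in KO noTrp against KO CTR, 20 in KO noCys against KO noTrp, 2 in WT noTrp against WT CTR and 6 in the difference, where 0.654, 4.52, 0.703 and 2.69% of all genes rose. The labels do not say what a number shares. Deviations from the group means correlated at −0.388 to 0.375 over 41 pairs of the same number (median −0.04), and at −0.413 to 0.255 over 140 pairs of different numbers (median 0.01), so the numbers were not taken to pair the samples.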
